A study of Homo sapiens with 28 samples.

Results

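The comparison described here set 3 arrays of HEK293 cells depleted of DDX5, one per short hairpin RNA (shRNA), against the 1 lacZ array that was normalized with them, 4 of the 28 arrays of the study. The arrays were identified by their labels. HEK293 is an established human embryonic kidney line, and the labels give no other genetic change or treatment. All groups received lentiviral particles carrying a hairpin under the U6 promoter, were kept in puromycin and were harvested after 6 days. The DDX5 cells carried hairpin 1, 2 or 3 against that gene. The control cells carried a hairpin against lacZ, a bacterial gene that human cells lack. Arrays of CLP1, DDX17 and HNRNPL knockdown (3 hairpins each, 9 arrays), normalized in the same series of 14, served to tell which differences other hairpins share. Cells were selected pools, each hairpin is represented by 1 array, and depletion was partial. The study asked whether DDX5, an accessory component of the complex that cleaves and polyadenylates pre-mRNA, acts on transcript ends. The values here are whole-transcript levels on the log2 scale of probeset intensity, so 1 unit is a doubling.

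DDX5 is the prototype of the DEAD-box RNA helicases, ATP-driven enzymes that remodel RNA duplexes and RNA-protein complexes. With its close paralog DDX17 it is known to bind the Microprocessor, in which DROSHA and DGCR8 cut primary microRNA transcripts. It also acts in alternative splicing and ribosome biogenesis, and as a transcriptional coregulator of p53, β-catenin, SMAD proteins, MyoD and RUNX2.

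Precision was limited by the number of arrays. The first-series lacZ array and one lacZ array of the second series differed with an SD over genes of 0.0634, and 0 genes were over 1 log2 unit apart. This is less than the spread between any other pair of arrays compared, so they were taken to be 1 sample. The copy stayed in the main fit, where it entered the spread and the series term but not the difference from lacZ. Every difference from lacZ rests on a single control array. A separate lacZ array of the second series, lacZ replicate 3, differed from the copy with an SD of 0.232. The labels name no repeat cultures of a hairpin, and the arrays of a knocked-down gene carry different hairpins. The p-values here therefore reflect mostly spread between hairpins of a gene, in which hairpin effects and technical variation cannot be told apart. The error of the single first-series lacZ array is taken from that spread. HEK293 and epithelial markers had a median level at the 91.3rd percentile of genes in lacZ cells, against the 17.6th to 33.5th percentile for markers of blood, fibroblasts, keratinocytes, and liver and endothelium. None of those 32 marker genes was called in DDX5 against lacZ, where 0.174% of all genes were called higher and 0.668% lower. The array of DDX5 hairpin 3 stood apart from the others. Its log2 levels spanned 3.67 units between the 10th and 90th percentile, against 4.61 and 4.34 for hairpins 1 and 2 and 4.39 for lacZ. Hairpins are therefore also given singly.

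DDX5 itself was lower with all 3 hairpins. Its signal (probeset 8017634) was 9.72, 9.61 and 9.26 with hairpins 1, 2 and 3, against 10.21 to 10.82 in the 9 CLP1, DDX17 and HNRNPL arrays and 10.57 with lacZ. The DDX5 arrays thus lay below every other array of the series. These are bulk RNA samples of selected pools, in which fewer cells with the transcript and less of it per cell cannot be told apart. The study chose its hairpins by knockdown measured with real-time PCR, a measure not used here. On the arrays the hairpins left 55.8%, 51.3% and 40.5% of the lacZ signal on the linear scale. Set against CLP1, DDX17 and HNRNPL cells together, it fell by 1.06 ± 0.16 (standard error, limma, Benjamini-Hochberg (BH) adjusted p = 0.00462). That call was lost without hairpin 3 (adjusted p = 0.0855) and in a fit of the first series only (0.0551). Against the single lacZ array the difference was -1.04 ± 0.28 and missed the threshold (adjusted p = 0.0869). It passed without hairpin 1 (0.033) and after quantile normalization (0.0334), within a range of 0.00463 to 0.22 over all alternatives.

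**Figure D1:**
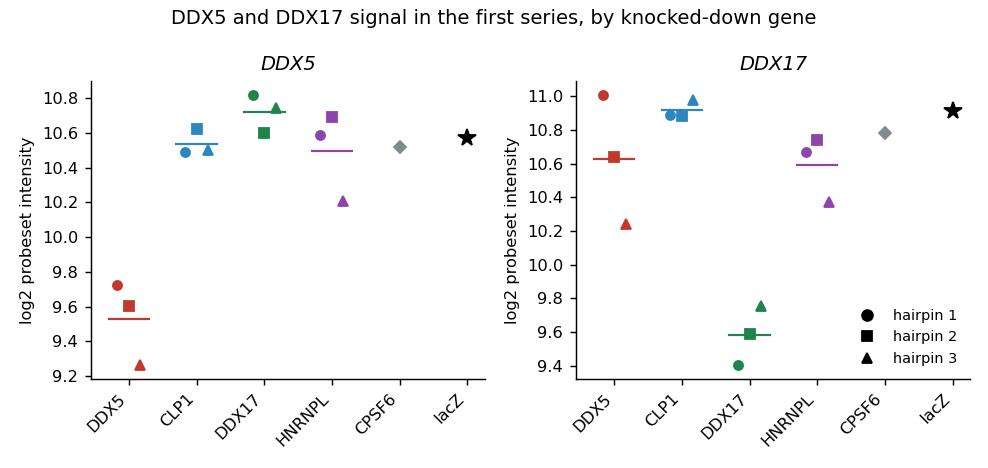
DDX5 (left) and DDX17 (right) signal in log2 probeset intensity in the 14 arrays of the first series, grouped by knocked-down gene. Symbols are hairpins, lines the mean of 3 hairpins. DDX5 lies between 9.26 and 9.72 in its own knockdown and at 10.21 or above elsewhere. DDX17 spreads over 10.24 to 11.01 in the DDX5 arrays.

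DDX17 (probeset 8076077) did not pass in either comparison. It read 11.01, 10.64 and 10.24 with DDX5 hairpins 1, 2 and 3, against 10.91 with lacZ, so hairpin 1 lay above the control and hairpins 2 and 3 below it. The difference from lacZ was -0.28 ± 0.25 (adjusted p = 0.699). In the DDX17 knockdown the same probeset read 9.40 to 9.75. Of 31 DEAD-box helicase genes measured, 0 were called in either direction against lacZ, where 0.174% of all 18417 genes were called higher and 0.668% lower. Their median difference was -0.21, against 0.02 over all genes, and by hairpin 0.07, -0.12 and -0.59. The list had a median lacZ level at the 87.2nd percentile, and all genes of the ninth decile by lacZ level had 0.12, -0.09 and -0.67. DDX5 was the 1 helicase of the list called lower than in the other knockdowns. DDX3X, a helicase of translation initiation, read 10.25, 9.58 and 9.04 with DDX5 hairpins and 10.35 with lacZ, with the same order of hairpins (difference -0.73 ± 0.32, adjusted p = 0.373).

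Against lacZ, 32 genes were called higher (0.174%) and 123 lower (0.668%) at a BH-adjusted p under 0.05. All 155 lay on one side of lacZ with all 3 hairpins. At an unadjusted p under 0.05 there were 2096 genes. The count depended on which arrays were used. Without hairpin 1 there were 111 higher and 515 lower, 626 in all, of which 153 were among the 155. Without hairpin 2 there were 186 calls, 35 higher and 151 lower, of which 136 were among them. Without hairpin 3 the split was 60 higher and 119 lower, and 125 of these 179 were among them. The first series on its own gave 5 higher and 42 lower, of which 46 were.

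The largest falls included regulators of growth signalling, a sterol enzyme and genes of large repeated families. ERRFI1, which damps EGF receptor signalling (probeset 7912157), read 8.38, 8.18 and 6.88 with DDX5 hairpins 1, 2 and 3, against 10.39 with lacZ, and fell by 2.57 ± 0.38 (adjusted p = 0.000516). PLK2, a polo-like kinase and p53 target (8112202), read 6.75, 6.83 and 5.64 in DDX5 cells and 8.64 in lacZ cells, and fell by 2.23 ± 0.43 (adjusted p = 0.00869). In both genes hairpin 3 was the lowest and the other hairpins lay close together. MSMO1, a sterol demethylase of cholesterol synthesis (8098195), read 7.43, 6.48 and 5.58 in DDX5 cells and 9.02 in lacZ cells, and fell by 2.52 ± 0.47 (adjusted p = 0.00616). ZSCAN5B, a SCAN-domain zinc finger protein (8039574), had the steadiest values, 4.47, 4.69 and 4.71 in DDX5 cells against 7.06 in lacZ cells, and fell by 2.44 ± 0.21 (adjusted p = 1.33e-07).

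The widest difference was that of RFPL4A, a RING finger gene with near-identical neighbouring copies (8031570). It read 5.40, 7.32 and 5.34 with DDX5 hairpins, against 10.29 with lacZ, and fell by 4.27 ± 0.95 (adjusted p = 0.026). Without hairpin 3 the call was lost (adjusted p = 0.0517). The log2 difference from lacZ was -3.47 ± 0.43 for REXO1L1P, a pseudogene of a repeated exonuclease family. It was -2.37 ± 0.30 and -2.25 ± 0.19 for the keratin-associated proteins KRTAP19-1 and KRTAP21-2 and -2.25 ± 0.28 for the olfactory receptor OR2B6. MIR7-3HG, the host transcript of a miR-7 gene, was at -2.29 ± 0.37, the membrane mucin MUC12 at -2.12 ± 0.24 and the histone pseudogene H2BC19P at -2.08 ± 0.38. The adjusted p-values of these 7 were 1.33e-07 to 0.00579. Values of genes with near-identical copies are uncertain, since their probes may read several copies.

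The largest rises held amino acid and stress genes. NUPR1, a stress-induced chromatin protein (8000574), read 9.06, 8.03 and 8.28 with DDX5 hairpins 1, 2 and 3, against 5.90 with lacZ, and rose by 2.56 ± 0.30 (adjusted p = 2.39e-05). INHBE, an inhibin subunit known as an ATF4 target (7956426), read 8.31, 6.95 and 7.22 in DDX5 cells and 5.64 in lacZ cells and rose by 1.85 ± 0.32 (adjusted p = 0.00372). In both, hairpin 1 was the highest. SLC7A3, a cationic amino acid transporter (8173414), read 9.37, 8.26 and 7.77 in DDX5 cells and 6.76 in lacZ cells, a rise by 1.70 ± 0.40 (adjusted p = 0.039). ATF5, a transcription factor of the stress response (8030557), rose by 1.47 ± 0.28 and GDF15, a secreted stress cytokine (8027002), by 1.54 ± 0.29 (adjusted p = 0.00706 and 0.00777).

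The other large rises were 2 small nucleolar RNAs and genes of varied function. SNORA38B and SNORA10, guides of pseudouridylation, rose by 2.13 ± 0.45 and 1.96 ± 0.45, and SNORA10 was no longer called without hairpin 3 (adjusted p = 0.0599). BEX1, a brain-expressed X-linked adaptor (8174201), read 9.17, 8.94 and 9.40 in DDX5 cells and 7.23 in lacZ cells, a rise by 1.94 ± 0.33. SH3BGR rose by 1.85 ± 0.26, the mitochondrial hydrolase HINT2 by 1.66 ± 0.33, the inositol phosphatase INPP5D by 1.43 ± 0.28 and the neuropeptide gene CALCB by 1.41 ± 0.31. The adjusted p-values of these 7 were 0.000195 to 0.0308.

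**Figure D2:**
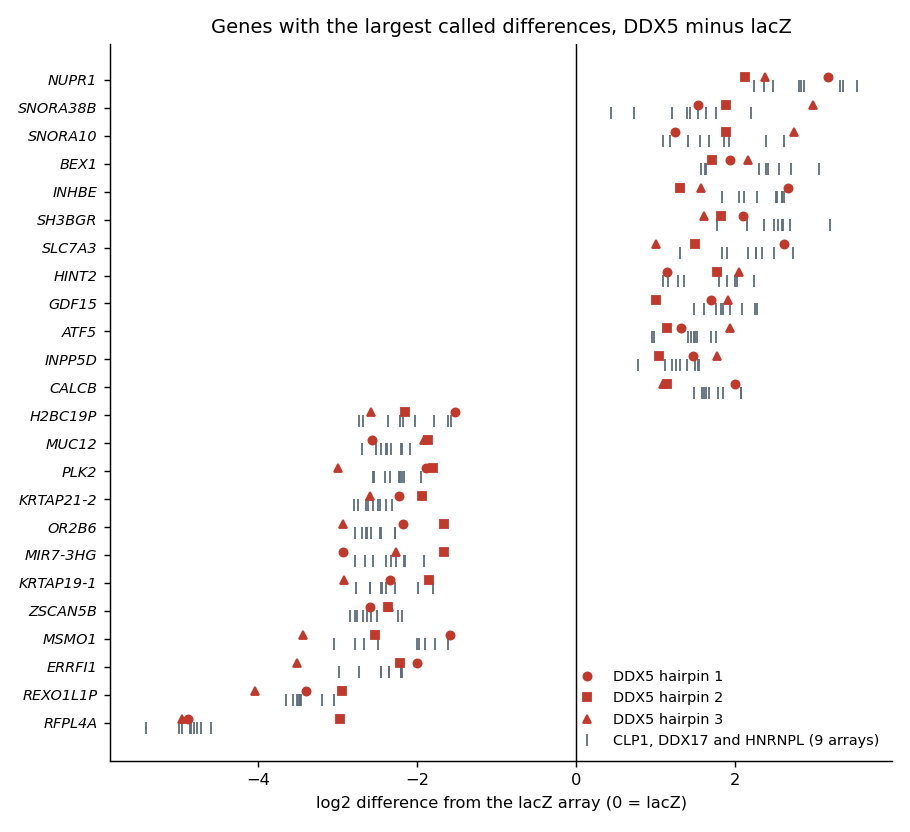
The 12 largest rises and 12 largest falls called in DDX5 against lacZ. Red symbols are DDX5 hairpins, grey ticks the 9 CLP1, DDX17 and HNRNPL arrays, as log2 differences from the same lacZ array at 0. For NUPR1 the DDX5 arrays read 8.03 to 9.06 and the other 9 arrays 8.14 to 9.43, both far above lacZ at 5.90, and the ticks and symbols of every gene shown lie on the same side of lacZ.

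The differences from lacZ were also seen with the other hairpins. For 0 of the 123 falls did the 3 DDX5 arrays lie below all 9 CLP1, DDX17 and HNRNPL arrays, and for 0 of the 32 rises above them. Over all genes these patterns held for 0.212% and 0.119%, so counts of 0 in sets of this size say little about these genes. ERRFI1, at 6.88 to 8.38 in DDX5 cells, read 7.41 to 8.20 in the 9 other arrays. The falls had a median difference from lacZ of -1.14 in DDX5 cells, against -1.01, -1.14 and -1.11 in CLP1, DDX17 and HNRNPL cells. The rises had 1.26 in DDX5 cells, against 1.16, 1.28 and 1.36. These comparisons share the lacZ array, whose value enters each of them. lacZ lay above all 13 knockdown arrays of its series for 116 of the 123 falls and below all 13 for 31 of the 32 rises. Over all genes lacZ was the highest for 9.72% and the lowest for 8.24%. Against the mean of the 3 other knockdowns the same falls had a median difference of -0.01 and the same rises 0.00 to 2 decimals.

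Between lacZ replicate 3 and the copied lacZ array, both normalized in the second series, some of these genes also differed. The median of replicate 3 minus the copied array was -0.15 over the falls and 0.25 over the rises, and -0.02 over all genes. The genes were called by their distance from the array that the copy repeats. Medians in these directions are therefore expected in part from the choice of genes. It was 1.24 for SNORA10, 0.97 for HINT2, 0.62 for BEX1, -1.26 for MSMO1, -0.78 for H2BC19P and -0.73 for REXO1L1P. It was 0.28 for NUPR1, -0.22 for ERRFI1 and -0.01 for PLK2. The part of the control array in the calls was not tested further.

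Setting DDX5 against the mean of CLP1, DDX17 and HNRNPL leaves out the lacZ array from the difference. It called 7 genes, 0.038% of those tested, all lower in DDX5 cells and 0 higher by limma, while 669 were higher at an unadjusted p under 0.05 and 1695 passed it in either direction. Beside DDX5 these were ZNF43, CD99, ZNF808, ZNF528, NALCN and ZNF610. CD99 is a cell surface glycoprotein, NALCN a sodium leak channel, and the others are zinc finger genes of the large C2H2 class. ZNF610, ZNF528 and ZNF808 are near neighbours in one chromosomal cluster, with at most 4 protein-coding genes between any pair in the RefSeq annotation of GRCh38.p14.

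CD99 (probeset 8165794) read 5.81, 6.43 and 6.24 with DDX5 hairpins 1, 2 and 3. It read 5.83 to 6.03 with CLP1 hairpins, 7.48 to 7.69 with DDX17 hairpins, 7.66 to 7.84 with HNRNPL hairpins and 6.36 with lacZ. DDX5 cells thus lay with CLP1 and lacZ cells and apart from DDX17 and HNRNPL cells. The difference from the mean of the other knockdowns was -0.94 ± 0.13 (adjusted p = 0.00161), and that from lacZ was -0.20 ± 0.23 (adjusted p = 0.777). ZNF808 (8030946) read 4.92, 4.98 and 4.84 in DDX5 cells, against 6.15 to 6.25 with DDX17 hairpins, 4.81 to 5.06 with CLP1 hairpins and 5.37 with lacZ (difference from the others -0.87 ± 0.11, adjusted p = 0.00061).

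ZNF43 (8035813) read 5.13, 4.96 and 4.62 in DDX5 cells and 4.96 with lacZ. It read 5.10 to 5.49 with CLP1 hairpins, 6.39 to 6.57 with DDX17 hairpins and 5.76 to 6.75 with HNRNPL hairpins. Its difference from the mean of the other knockdowns was -1.10 ± 0.20. On the same measure ZNF528 was at -0.76 ± 0.13, NALCN at -0.66 ± 0.12 and ZNF610 at -0.61 ± 0.10. The adjusted p of these 4 was 0.0185 to 0.0236. In none of the 6 genes did DDX5 differ from lacZ at the threshold (adjusted p = 0.34 to 0.968). Each read higher in the CPSF6 array than with any DDX5 hairpin.

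Leaving out hairpin 2 left 3 of the 7 calls and no other. Leaving out hairpin 3 left 2 of them and added 1 gene that was higher in DDX5 cells, GATM, the first enzyme of creatine synthesis (1.06, adjusted p = 0.00406). ZNF43, ZNF528, NALCN and ZNF610 were lost without hairpin 2 (adjusted p = 0.205 to 0.314) and without hairpin 3 (0.126 to 0.253), while CD99 and ZNF808 passed in both. With the first series fitted alone no gene passed, and without hairpin 1, the array least like hairpin 3, 3159 did. Against CLP1 alone the comparison gave 1 call, and against HNRNPL alone 28.

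**Figure D3:**
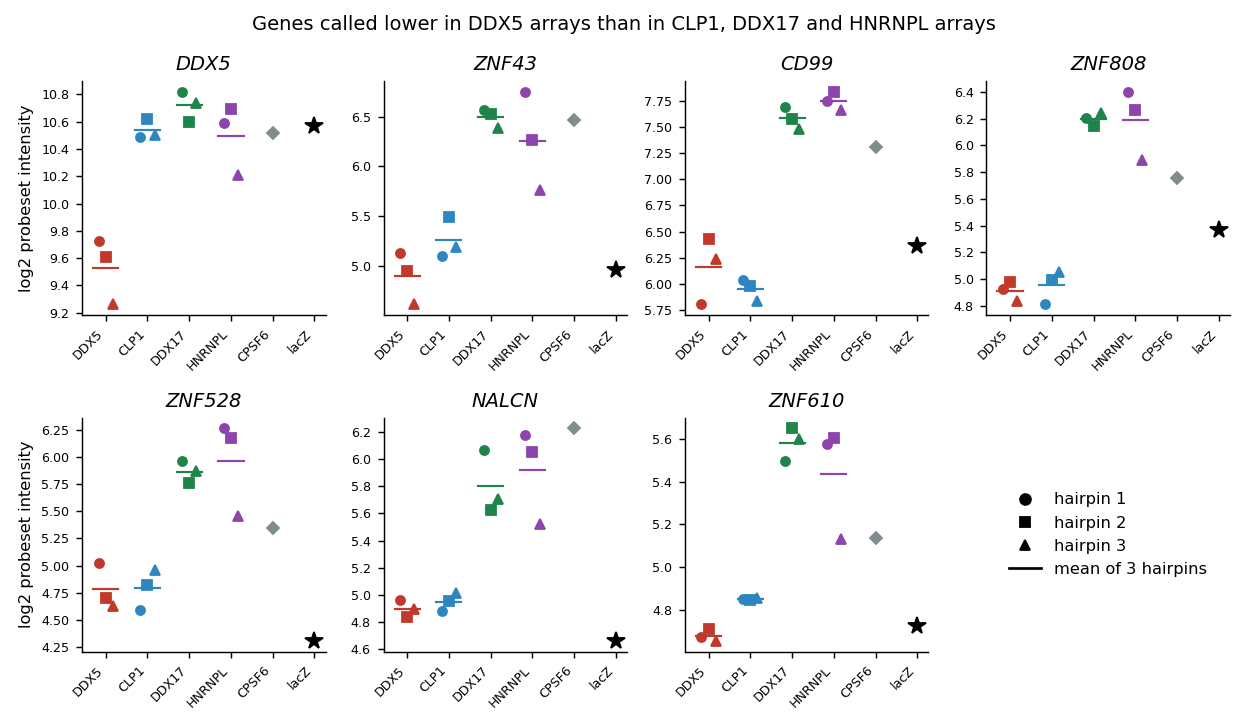
The 7 genes called lower in DDX5 arrays than in the mean of CLP1, DDX17 and HNRNPL arrays, in log2 probeset intensity by knocked-down gene. Symbols are hairpins and lines the mean of 3. DDX5 is low in its own knockdown alone. The 6 other genes are low in DDX5 and CLP1 arrays and lacZ, and high in DDX17, HNRNPL and CPSF6 arrays, as for CD99 with 5.81 to 6.43 in DDX5 arrays and 7.48 to 7.69 in DDX17 arrays.

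Only DDX5 had a wide gap between its own arrays and the others. For 39 genes all 3 DDX5 arrays lay below all 9 arrays of the other knockdowns and for 22 above them. The gap was 0.49 for DDX5, next 0.14 for ZNF610, and 0.12 for SHISA5, a membrane protein of the p53 response, which read 8.62, 8.62 and 8.46 in DDX5 cells, against 8.73 to 9.26 in the others and 8.68 with lacZ. On the high side it was 0.17 for IGFBPL1, an insulin-like growth factor binding protein-like gene, at 7.06, 6.91 and 7.27 in DDX5 cells, against 6.35 to 6.74 in the others and 6.71 with lacZ. It was 0.11 for SELENOM, a selenoprotein of the endoplasmic reticulum. These genes were picked for their gaps after their values were seen, and none except DDX5 and ZNF610 was called. lacZ lay beyond the 9 arrays on the same side as DDX5 for 21 of the 39 low genes and 7 of the 22 high ones.

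DDX5 and DDX17 knockdown differed in 91 genes, 19 higher in DDX5 cells (0.103%) and 72 lower (0.391%). With arrays centred on their medians the calls split 11 to 98, so that the share called higher was 10.1% in place of 20.9%. Each target was lower in its own knockdown: the difference of DDX5 from DDX17 cells was -1.19 ± 0.20 for DDX5 and 1.05 ± 0.17 for DDX17 (adjusted p = 0.00242 for both). CD99 and ZNF808 were also lower in DDX5 cells, at -1.43 ± 0.16 and -1.29 ± 0.14 (adjusted p = 3.11e-05 and 1.62e-05). Of 520 zinc finger genes, 24 were called lower and 1 higher. Dropping hairpin 2 gave 36 calls, dropping hairpin 1 gave 2480, and the first series on its own gave 19. Dropping hairpin 3 gave 50 higher and 58 lower, so that 46.3% of its calls were higher.

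Hairpin 3 differed from hairpins 1 and 2 more than any hairpins of CLP1, DDX17 or HNRNPL differed from each other. Differences between arrays had an SD over genes of 0.355 between hairpins 1 and 2, 0.757 between 1 and 3 and 0.536 between 2 and 3. Hairpins of CLP1, DDX17 and HNRNPL differed by 0.164 to 0.391. Past 1 log2 unit from lacZ, hairpin 1 had 271 genes higher (1.47%) and 122 lower (0.662%), hairpin 2 had 139 (0.755%) and 135 (0.733%), and hairpin 3 had 419 (2.28%) and 1922 (10.4%).

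The excess of low genes with hairpin 3 went with expression level. In the lowest decile of genes by lacZ level, the median difference from lacZ was 0.04, 0.05 and 0.24 with DDX5 hairpins 1, 2 and 3. In the highest decile it was 0.11, -0.14 and -0.82. With hairpin 3 it was 0.33 in the fourth decile, 0.03 in the sixth and -0.67 in the ninth, so that low signals were higher and high signals lower than in lacZ. HNRNPL hairpin 3 had -0.46 in the highest decile, and the other 8 arrays of the 3 knockdowns lay between -0.12 and 0.04. Quantile normalization, which gives every array the same distribution, changed the hairpin 3 counts to 1130 higher and 1354 lower, that is 45.5% higher in place of 17.9%. GAPDH, the glycolytic enzyme with one of the highest signals, read 12.90, 12.53 and 11.21 with DDX5 hairpins, against 12.97 with lacZ. RNA quality is not given in the sources used here, and its part was not tested.

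**Figure D4:**
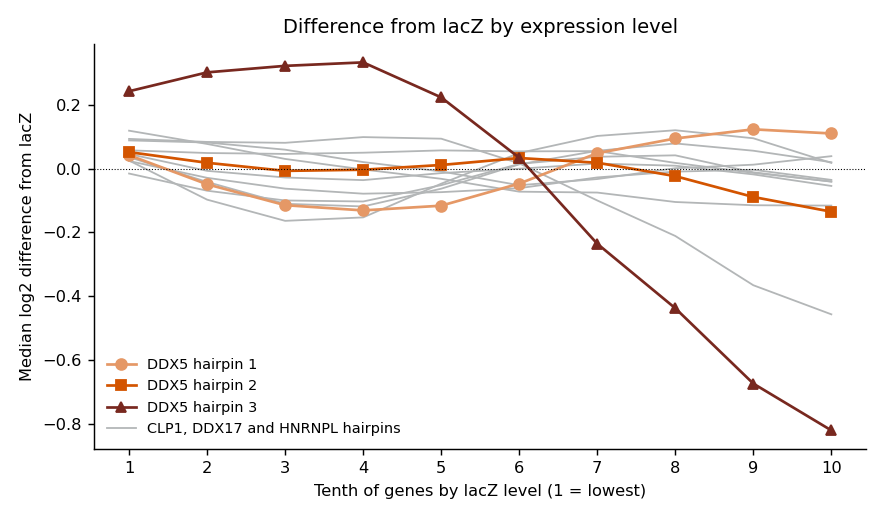
Median log2 difference from lacZ in each decile of genes ordered by lacZ level, by hairpin. DDX5 hairpins are coloured and the 9 CLP1, DDX17 and HNRNPL hairpins are grey. Hairpin 3 runs between 0.24 in the lowest decile and -0.82 in the highest, while DDX5 hairpins 1 and 2 stay between -0.14 and 0.12.

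Genes furthest apart with hairpin 3 are given as a description, among genes with a mean DDX5 level of at least 64 (6 in log2). Relative to the mean of hairpins 1 and 2, 335 genes were over 1 log2 unit higher (1.82%) and 1745 lower (9.47%). The lowest were ZNF845 at -2.30, the organic anion transporter SLCO4C1 at -2.26, the pseudokinase STRADB at -2.25 and GET1, which inserts tail-anchored proteins into membranes, at -2.21. CGA, the common α subunit of glycoprotein hormones, CEP15, ZNF204P and ESCO2, an acetyltransferase of cohesin, followed at -2.04 to -2.17. ZNF845 read 5.85 with hairpin 3 against 8.56 and 7.74 with hairpins 1 and 2. The highest were the readthrough transcript SEPT5-GP1BB at 2.34, SPDYE7P at 2.12, VLDLR-AS1 at 1.98 and LKAAEAR1 at 1.81. SNORA28, SNORD83A, MIR30C2 and LINC01356 followed at 1.68 to 1.76. Hairpin 3 of HNRNPL also lay beyond HNRNPL hairpins 1 and 2, on the same side, in all genes named here except CGA. ZNF845 read 7.98, 7.88 and 6.45 with HNRNPL hairpins 1, 2 and 3, and SPDYE7P 6.90, 6.86 and 8.55. Deviations from group means correlated at 0.833 between hairpin 3 of DDX5 and hairpin 3 of HNRNPL. The readthrough transcript shares sequence with its component genes and VLDLR-AS1 overlaps its antisense partner, so both values are uncertain.

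Genes of the Microprocessor and microRNA pathway were not called. Of 19 measured, 0 passed against lacZ, where 0.174% of all genes were called higher and 0.668% lower. Against the other knockdowns 0 of the 19 passed, beside 0.038% of all genes. Counts of 0 in a list of this size say little about its genes. The 19 had a median difference from lacZ of -0.34, with -0.08, -0.19 and -0.60 for hairpins 1, 2 and 3, against 0.02 over all genes. The list had a median lacZ level at the 85.6th percentile. All genes of the ninth decile by lacZ level had 0.12, -0.09 and -0.67 with these hairpins, so the hairpin 3 median is near that of genes at this level. DGCR8, the double-stranded RNA binding subunit, read 7.73, 8.06 and 7.95 with DDX5 hairpins and 7.99 with lacZ (-0.08 ± 0.19). DROSHA, the nuclease, read 8.89, 8.93 and 8.07 in DDX5 cells and 9.09 in lacZ cells (-0.46 ± 0.28, adjusted p = 0.571). LIN28B, which blocks let-7 maturation, and AGO3, an Argonaute protein, had the largest differences, -0.87 ± 0.53 and -0.73 ± 0.33, without a call.

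Probesets for microRNA genes read the precursor locus, not the mature microRNA. Of 189 such genes, host transcripts included, 0 were called higher and 1 lower, the host gene MIR7-3HG. Over all genes the shares were 0.174% and 0.668%. Of the 155 with a hairpin in RefSeq, 0 were called, 24 passed an unadjusted p under 0.05, and 79, 101 and 133 lay above lacZ with hairpins 1, 2 and 3. The medians of the 155 were 0.01, 0.07 and 0.34. The 189 genes had a median lacZ level at the 15.9th percentile, and all genes of the second decile had -0.05, 0.02 and 0.30. The 3 precursors highest above lacZ are shown by the mature arms they encode, with the seed (bases 2 to 8) in capitals, 5′ to 3′, from RefSeq on GRCh38.p14.
hsa-miR-15a-5p (chr13:50049167-50049188, minus strand): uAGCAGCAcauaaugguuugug
hsa-miR-15a-3p (chr13:50049130-50049151, minus strand): cAGGCCAUauugugcugccuca
hsa-miR-26b-5p (chr2:218402657-218402677, plus strand): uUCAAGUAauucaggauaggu
hsa-miR-26b-3p (chr2:218402692-218402712, plus strand): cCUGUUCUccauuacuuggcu
hsa-miR-9-5p (chr1:156420392-156420414, minus strand): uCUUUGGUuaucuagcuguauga
hsa-miR-9-3p (chr1:156420354-156420375, minus strand): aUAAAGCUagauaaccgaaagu
No seed is shared among them. MIR15A, on chromosome 13 and known as a brake on BCL2 and cyclins, read 6.74, 7.22 and 6.96 with DDX5 hairpins, against 5.83 with lacZ and 6.24 to 7.32 in the 9 other knockdown arrays (difference from lacZ 1.15 ± 0.47, adjusted p = 0.33). MIR26B read 5.37, 5.69 and 6.05 in DDX5 cells and 5.01 in lacZ cells, and MIR9-1 read 4.44, 4.62 and 5.30 in DDX5 cells and 4.11 in lacZ cells (adjusted p = 0.179 and 0.152). lacZ replicate 3 minus the copied lacZ array was 0.51, 0.60 and 0.38 for MIR15A, MIR26B and MIR9-1. These 3 were picked for their distance above the array that the copy repeats. MIR331 had the largest difference among precursors below lacZ, with 5.06, 4.41 and 4.63 in DDX5 cells and 5.45 in lacZ cells (-0.75 ± 0.32, adjusted p = 0.352).

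Small nucleolar RNAs lay mostly above lacZ. Of 77 box H/ACA and Cajal body RNAs, which guide the modification of ribosomal and spliceosomal RNAs, 2 were called higher and 0 lower, and 71 lay above lacZ. Over all genes 0.174% were called higher and 0.668% lower. The median difference of the 77 was 0.88, with 0.53, 0.83 and 1.29 for hairpins 1, 2 and 3. It was 0.28, 0.74 and 0.79 in CLP1, DDX17 and HNRNPL cells, and lacZ replicate 3 lay above the copied array for 65 of 77, by a median of 0.43. SNORA38B (8009380) read 8.85, 9.20 and 10.29 in DDX5 cells, against 7.32 in lacZ cells. SNORA10 (7998664) read 10.62, 11.26 and 12.11 in DDX5 cells, against 9.37 in lacZ cells. In both the order was hairpin 1, 2, 3. The 115 box C/D RNAs, which guide ribose methylation, had 0 calls and a median of 0.30. SNORD54 had the largest difference among them, 1.64 ± 0.69 (adjusted p = 0.346).

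The protein side of ribosome assembly had no calls, where 0.174% of all genes were called higher and 0.668% lower. The medians were -0.10 over 32 ribosome biogenesis genes and 0.14 over 55 cytosolic ribosomal protein genes. By hairpin the ribosomal protein genes had 0.29, 0.28 and -0.13. Their median lacZ level was at the 99.4th percentile, and all genes of the tenth decile had 0.11, -0.14 and -0.82. NOP2, an rRNA methyltransferase, read 9.09, 8.59 and 8.07 in DDX5 cells and 9.47 in lacZ cells (-0.88 ± 0.29, adjusted p = 0.185), and RPL22 differed by 0.82 ± 0.31 (adjusted p = 0.279).

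**Figure D5:**
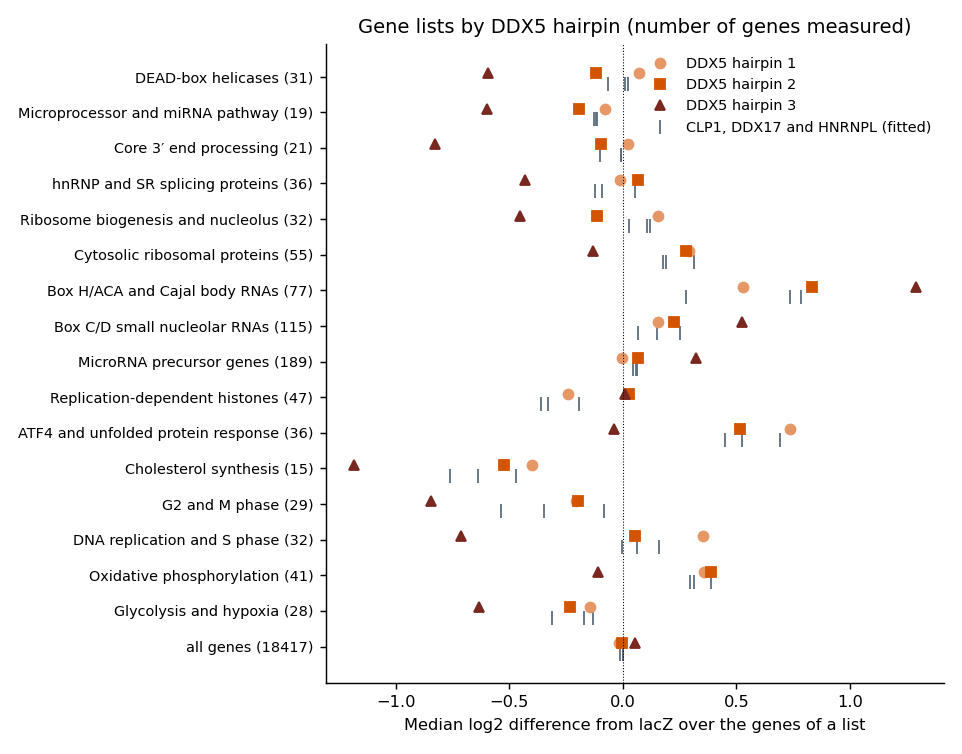
Median log2 difference from lacZ over the genes of 16 lists and over all genes, with the number of genes measured. Coloured symbols are DDX5 hairpins, and grey ticks the fitted CLP1, DDX17 and HNRNPL differences from the same lacZ array. Box H/ACA RNAs lie at 0.53 to 1.29 with DDX5 hairpins and cholesterol synthesis at -0.40 to -1.18, and hairpin 3 lies left of hairpins 1 and 2 in most lists of protein-coding genes, histones excepted.

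Factors of the pathway the study started with did not pass either. Of 21 core 3′ end processing genes, 0 were called, where 0.174% of all genes were called higher and 0.668% lower. The medians of the 21 were 0.02, -0.10 and -0.83 for hairpins 1, 2 and 3. Their median lacZ level was at the 85.5th percentile, and all genes of the ninth decile had 0.12, -0.09 and -0.67. RBBP6, a RING finger subunit of the cleavage complex, read 8.56, 8.24 and 7.36 in DDX5 cells and 9.18 in lacZ cells (-1.13 ± 0.32, adjusted p = 0.113). PAPOLA, the canonical poly(A) polymerase, differed by -0.62 ± 0.36. Among 36 hnRNP and SR splicing proteins 0 were called, and the largest differences were 0.73 ± 0.46 for MBNL3 and -0.67 ± 0.32 for PTBP2. The nonsense-mediated decay genes (12) and cohesin genes with CTCF (10) had 0 calls, with medians of -0.03 and -0.34. SMG1 and UPF2 of the decay pathway differed by -1.05 ± 0.35 and -1.01 ± 0.34, and the cohesin genes NIPBL and SMC1A by -0.56 ± 0.35 and -0.52 ± 0.31. The study lists Aire-sensitive genes with proximal polyadenylation sites in mouse thymic epithelium. Clone-type and provisional mouse symbols were set aside, and of the 712 genes left, 543 were measured under the same human symbol. The study did not choose them on these arrays. Their median difference was 0.09, with -0.04, 0.02 and 0.24 for hairpins 1, 2 and 3, and their median lacZ level was at the 25.4th percentile. One was called higher, INHBE, and 3 lower, PLK2, FRZB at -1.12 ± 0.23 and CPM at -1.06 ± 0.26. Over all genes 0.174% were called higher and 0.668% lower, so these counts are near the share of any genes. CPM was lost without hairpin 2 or 3 (adjusted p = 0.0643 and 0.0851).

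Genes of the ATF4 and unfolded protein response, which cells induce when amino acids are short or proteins misfold, had medians above lacZ with hairpins 1 and 2. Below lacZ were 6, 11 and 18 of 36 with hairpins 1, 2 and 3. Of the 36 measured, 3 were called higher (NUPR1, INHBE and ATF5) and 0 lower, against 0.174% and 0.668% of all genes. The median was 0.54, with 0.74, 0.52 and -0.04 for hairpins 1, 2 and 3, and 0.69, 0.53 and 0.45 in CLP1, DDX17 and HNRNPL cells. The list had a median lacZ level at the 81.3rd percentile, and all genes of the ninth decile had 0.12, -0.09 and -0.67. With all 3 hairpins, hairpin 3 included, the list median thus lay above that of genes at this level. Past 1 log2 unit above lacZ were 14 of 36 genes with hairpin 1, 3 with hairpin 2 and 4 with hairpin 3. ATF4 itself read 10.88, 10.67 and 10.08 in DDX5 cells and 10.77 in lacZ cells (-0.22 ± 0.25). ASNS and TRIB3 are shown for their known place in this response, after their values were seen. ASNS, asparagine synthetase, read 10.34, 9.99 and 8.92 in DDX5 cells and 9.22 in lacZ cells (0.53 ± 0.49, adjusted p = 0.718), with hairpin 3 below the control. TRIB3, a pseudokinase induced by ATF4, read 7.99, 6.85 and 7.50 in DDX5 cells and 6.48 in lacZ cells (0.97 ± 0.28, adjusted p = 0.122).

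The response element read by ATF4 with C/EBP partners was searched as TGATGCAA on both strands of RefSeq promoters (GRCh38.p14, 250 bases before to 50 after the start). It stood in 0.866% of 35116 promoters, in 3 of the 30 list genes with a promoter entry, in 1 of 21 genes called higher and in 1 of 92 called lower. The windows are shown in the direction of the gene with the element in capitals, TTGCATCA being its reverse complement.
SLC1A4 (chr2:64989381-64989410, plus strand): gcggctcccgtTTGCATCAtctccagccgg
CEBPG (chr19:33374060-33374089, plus strand): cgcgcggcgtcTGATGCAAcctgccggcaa
CHAC1 (chr15:40953251-40953280, plus strand): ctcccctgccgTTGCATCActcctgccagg
HERPUD1 (chr16:56931955-56931984, plus strand): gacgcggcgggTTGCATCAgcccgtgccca
BCL6 (chr3:187745427-187745456, minus strand): cttagaagtggTGATGCAAgaagtttctag
These genes were picked for the match, which is a description and not a binding site. The list holds genes known for this response, so matches within it do not bear on DDX5. The sterol response element core, CACCCCAC, was also searched and stood in 2.79% of all promoters. It stood in 0 of 14 cholesterol synthesis genes, 0 of 21 genes called higher and 1 of 92 called lower. SLC1A4, a neutral amino acid transporter, read 7.65, 7.11 and 6.66 in DDX5 cells and 6.04 in lacZ cells (1.10 ± 0.27, adjusted p = 0.0496). CHAC1, which degrades glutathione, read 8.43, 7.65 and 7.61 in DDX5 cells and 6.99 in lacZ cells (0.91 ± 0.33, adjusted p = 0.245). CEBPG, a C/EBP partner, differed by 0.73 ± 0.26 and HERPUD1, a factor of protein disposal at the endoplasmic reticulum, by -0.34 ± 0.34 (adjusted p = 0.239 and 0.747). BCL6, a transcriptional repressor, fell by 1.03 ± 0.22 (adjusted p = 0.0196).

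Of 19 cholesterol synthesis genes 15 were measured, and 12 lay below lacZ and 3 above it. Of the 15, 3 were called lower and 0 higher, against 0.668% and 0.174% of all genes. The median was -0.58, with -0.40, -0.52 and -1.18 for hairpins 1, 2 and 3. CLP1, DDX17 and HNRNPL cells had -0.47, -0.64 and -0.76. The list had a median lacZ level at the 86.4th percentile, and all genes of the ninth decile had 0.12, -0.09 and -0.67 with DDX5 hairpins 1, 2 and 3. Beside MSMO1, INSIG1, which retains the sterol sensor in the endoplasmic reticulum, fell by 1.76 ± 0.37 (adjusted p = 0.0173) and IDI1, an isoprenoid isomerase, differed by -1.55 ± 0.30 (adjusted p = 0.00915). INSIG1 read 8.28, 7.86 and 6.99 in DDX5 cells, against 7.01 to 7.87 in the 9 other knockdown arrays and 9.47 with lacZ.

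Among 47 replication-dependent histone genes, 1 was called higher and 4 lower, against 0.174% and 0.668% of all genes. H3C7 rose by 1.36 ± 0.32 (adjusted p = 0.0426), while H4C9, H2BC14 and H2BC17 were lower, at -1.26 ± 0.23, -1.25 ± 0.24 and -1.06 ± 0.26 (adjusted p = 0.00576, 0.00837 and 0.0492). H3C7 was lost without hairpin 3 (adjusted p = 0.0703) and H2BC17 without hairpin 2 (0.0609). The list's median of -0.08 stood against -0.19, -0.36 and -0.33 in CLP1, DDX17 and HNRNPL cells. Histone genes have near-identical copies, and their values are uncertain for that reason. Of 29 genes of the G2 and M phases and 32 of DNA replication, 0 were called in either list. The G2 and M median was -0.45, with -0.21, -0.20 and -0.85 by hairpin, and KIF20A, a mitotic kinesin, read 8.39, 8.32 and 6.81 in DDX5 cells and 9.08 in lacZ cells (-1.24 ± 0.42, adjusted p = 0.206). AURKA differed by -0.85 ± 0.28. The replication median was -0.10, with 0.35, 0.05 and -0.71 by hairpin. The G2 and M list and the replication list had median lacZ levels at the 91.9th and 89.8th percentile. With hairpin 3, all genes of the tenth and ninth deciles had -0.82 and -0.67. TYMS, thymidylate synthase, differed by 1.01 ± 0.28 and CDC6, an origin licensing factor, by -0.98 ± 0.33 (adjusted p = 0.095 and 0.189).

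No gene of the 2 energy metabolism lists was called, where 0.174% of all genes were called higher and 0.668% lower. Oxidative phosphorylation genes (41, 0 called) had a median of 0.18, with 0.36, 0.39 and -0.11, and COX5B and NDUFA6 differed by 0.96 ± 0.31 and 0.82 ± 0.28. Glycolysis and hypoxia genes (28, 0 called) had -0.33, with -0.14, -0.23 and -0.63, and P4HA1 and LDHA differed by -1.05 ± 0.56 and -0.86 ± 0.35. The 2 lists had median lacZ levels at the 86.25th and 83.9th percentile. All genes of the ninth decile had 0.12, -0.09 and -0.67 with hairpins 1, 2 and 3.

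The remaining lists include targets of pathways in which DDX5 is known as a coregulator, and their counts stand against 0.174% higher and 0.668% lower over all genes. Of 28 p53 targets, GDF15 was called higher and PLK2 lower, with a median of 0.07. The Wnt and β-catenin targets (19) had 0 calls and a median of -0.02, with BAMBI at -0.72 ± 0.27 and SOX4 at 0.50 ± 0.30. Of 24 TGF-β, SMAD and mesenchymal genes, 1 was called. ACTA2, smooth muscle actin (7934906), read 8.63, 9.01 and 8.78 in DDX5 cells, against 8.35 to 9.03 in the 9 other knockdown arrays and 7.51 with lacZ, and rose by 1.30 ± 0.26 (adjusted p = 0.00974). Muscle and osteoblast genes (19) had 0 calls, with ACTA1 at -0.60 ± 0.25 and the phosphatase ALPL at -0.57 ± 0.21. Among 29 growth factor feedback and early response genes, ERRFI1 was the 1 called lower and 0 were called higher, and the median was -0.19. Interferon-stimulated genes (29) had 0 calls and a median of 0.03, with IFI6 and IFI44L at -0.50 ± 0.21 and -0.43 ± 0.21. Zinc finger genes (520) had 10 called lower and 0 higher. Beside ZSCAN5B they included ZNF844, ZNF850 and ZNF345, at -1.98 ± 0.25, -1.77 ± 0.42 and -1.22 ± 0.26, and ZNF850 was lost without hairpin 2 or 3 (adjusted p = 0.0566 and 0.0637). Of 68 keratin-associated protein genes 3 were called lower and 0 higher, KRTAP19-8 among them at -1.52 ± 0.19. HOX genes (27) had 0 calls, with HOXC10 at -0.70 ± 0.21 and HOXB8 at 0.60 ± 0.36.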

How the data were processed

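RNA was hybridised to Affymetrix Human Gene ST1.0 arrays, 1 per hairpin. Deposited values are probeset intensity on a linear scale, which the authors made by RMA in aroma.affymetrix for each series apart, so lacZ of one series was not set against the other in the main fit. Values were used as log2. The table held 33252 probesets, of which 19460 had 1 gene symbol in the platform annotation, 1754 several and 12038 none. For each of 18417 genes the probeset with the highest mean was kept, 18389 matching the RefSeq gene table by Entrez ID. No genome build is named for the arrays, and probeset positions are not given. Coordinates of microRNA arms and promoter windows are those of RefSeq on GRCh38.p14.

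All 28 arrays entered 1 limma fit (3.58.1, R 4.3.3, intensity trend) with a term per knocked-down gene and one for the series, leaving 17 residual degrees of freedom. DDX5 was contrasted with lacZ of the first series, with the mean of CLP1, DDX17 and HNRNPL, and with DDX17. Genes were called at a Benjamini-Hochberg adjusted p under 0.05 over all genes. The fits were also run on simulated data with independent noise of a fixed spread per gene. No array like that of DDX5 hairpin 3 was simulated, so those runs do not bear on its effect. Arrays have no read depth, and their number limits the precision. Tables were handled in Python 3.11.15 (pandas 2.3.3, numpy 2.4.6).

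Members and gene lists were chosen with earlier results of these data known. Genes named are DDX5 and DDX17, up to 12 largest calls per direction, up to 4 called members per list (the 2 largest differences where none passed), 8 genes per direction for hairpin 3, and others given for their role (DDX3X, DROSHA, DGCR8, ATF4, GAPDH, promoter matches) or chosen after their values were seen, as stated. Alternatives were the first series alone, quantile normalization, centring, a pseudocount of 16, a filter at log2 of 6, no trend, probeset means, the hairpin number as a block, lacZ of both series with all arrays quantile normalized together, each DDX5 hairpin left out and, added after seeing the data, the copied lacZ array left out.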

Additional observations from a re-analysis of the deposited data

How the results depend on the processing

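DDX5 against lacZ gave 155 calls, 47 with the first series fitted alone, 247 after quantile normalization within each series, 582 with lacZ of both series and all arrays quantile normalized together, and 179 to 626 when a DDX5 hairpin was left out. Leaving out the copied lacZ array gave 129, of which 22 were higher and 107 lower. The 7 calls against the other knockdowns became 0 with the first series alone, 1 against CLP1 singly, 28 against HNRNPL singly and 3 to 3159 when a hairpin was left out. The 91 calls against DDX17 became 19 with the first series alone and 36 to 2480 when a hairpin was left out. The first series alone has fewer arrays to set the spread, and the causes of the other shifts were not tested. Past 1 log2 unit from lacZ, hairpin 1 had 393 genes, 254 with a pseudocount and 86 past 1.5. Hairpin 2 had 274, 173 with a pseudocount and 45 past 1.5. Hairpin 3 had 2341, and 533 past 1.5. Hairpin 3 against the mean of hairpins 1 and 2 had 2080, 1382 with a pseudocount and 188 past 1.5, and after quantile normalization 47.3% of its genes were higher, in place of 16.1%. No result reversed. Of 46 named calls (45 genes), 19 passed under every alternative run, 26 were lost with the first series alone, 0, 7 and 10 without hairpins 1, 2 and 3, and 2 after quantile normalization. Signal near background was not filtered in the main fit, and 150 genes were called when only those reaching log2 of 6 were tested.

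Hairpin numbers do not pair arrays in the labels. Deviations from group means correlated over 0.1 in 8 of 18 same-numbered pairs (-0.575 to 0.833), most for hairpin 3 of DDX5 and HNRNPL. With the replicate block there were 153, 8 and 78 calls against lacZ, the other knockdowns and DDX17, and 1 named call was lost, H3C7 (adjusted p = 0.056).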
